A study of Mus musculus with 24 samples.

Results

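The data described here are 8 of the 24 RNA-seq libraries of the series, those of BAP1-AID mouse embryonic stem cells (ESCs) collected after 3 h or 6 h of retinoic acid (RA). They were chosen by clone, RA time and treatment, with 4 libraries without indole-3-acetic acid (−IAA) and 4 with it (+IAA), as 2 replicates at each time. BAP1-AID ESCs carry an HA tag and an auxin-inducible degron at the C terminus of BAP1, inserted by CRISPR-Cas9, and stably overexpress TIR1, the plant F-box protein that binds the degron when IAA is present. IAA was given before RA, and the RA medium held no leukemia inhibitory factor. The −IAA cells carry the same tag and TIR1 and received the same RA, and whether they received a vehicle is not given in the sources used here. The line is 1 clone, so the arms compare IAA within that clone and say nothing of a second one. The 8 RA-treated libraries of UTX-AID ESCs, a clone with the degron at the N terminus of UTX, and the 4 BAP1-AID libraries at 0 h of RA are given beside the results as comparisons. Nothing in the labels says that the replicates came from separate cultures, so the p-values measure the spread between these libraries, which may be technical.

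BAP1 is the catalytic subunit of the Polycomb repressive deubiquitinase (PR-DUB), which removes ubiquitin from lysine 119 of histone H2A. That mark is written by Polycomb repressive complex 1 (PRC1), and it is read by forms of PRC2, which methylates lysine 27 of histone H3. In ESCs, Polycomb complexes hold developmental genes such as the Hox clusters at low levels, and RA, acting through nuclear RA receptors, induces some of those genes within hours. The comparison of the arms asks which transcripts differ once BAP1 is degraded in cells that respond to RA, and whether 3 h and 6 h give the same answer.

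The table gives estimated counts per gene from StringTie, and the 8 libraries summed to between 48392851 and 52766527. The values below are in CPM, the count scaled to the TMM-adjusted sum of its library, and 3 counts, taken as the smallest detectable amount in a library, stood for 0.058 to 0.0624 CPM. The deposited values are of RNA from whole cultures, in which fewer cells of a type and less RNA per cell cannot be told apart. Each of the 10 ESC markers was above 1 CPM on average, and their sum was 4723 to 5573 CPM without IAA and 4501 to 4932 CPM with it. The sums of 10 extraembryonic endoderm markers (22.9 to 31.4 CPM), 10 trophoblast markers (7.3 to 11.9 CPM) and 10 fibroblast markers (39.1 to 48.2 CPM) overlapped between the arms. Of the trophoblast markers, 4 were at 0 in all 8 libraries and 9 were under 1 CPM.

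IAA acts on the BAP1 protein, so the transcript is no measure of its loss. *Bap1* was at 104 and 95.8 CPM without IAA and 103 and 105 CPM with IAA at 3 h, and at 93.3 and 95.5 CPM against 99.6 and 93.7 CPM at 6 h. The arms overlapped, and the log2 fold change with IAA was 0.033 ± 0.053 (SE, adjusted p = 0.704). The exons of *Bap1* share bases with *Dnah1* and *Phf7* on the opposite strand, and the strandedness of the libraries is not given in the sources used here.

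The comparison of the arms was fitted with RA time as a covariate across 15309 genes, and a gene was called when its adjusted p was under 0.05 and its absolute log2 fold change above 1. With IAA, 57 genes (0.372% of those tested) were called higher and 114 (0.745%) lower. By the adjusted p alone, 1752 genes (11.4%) rose and 1578 (10.3%) fell, and below a gene is said to have risen or fallen by that p alone. The arms differed in a trend with base composition, so the fit was repeated with the trend of each library with GC content and transcript length removed. After this correction, 22 genes (0.144%) were called higher and 67 (0.438%) lower, while 1013 (6.62%) rose and 915 (5.98%) fell by the adjusted p alone. Of the called genes, 17 higher and 62 lower ones were called both with and without the correction. So 40 of the 57 higher calls, and 52 of the 114 lower ones, were not made with the correction. Of the 17 and the 62, 14 and 55 had an annotated transcript. The counts of the others were not corrected in either fit. The number called higher was 104 without replicate 1 of −IAA 3 h, 29 or 35 without replicate 1 or 2 of −IAA 6 h, and 28 or 34 without replicate 1 or 2 of +IAA 6 h.

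Expressed genes were split into 10 equal bins by GC content. In the bin with the lowest GC content (median 40.4%), the median log2 fold change with IAA was 0.33, and it went down from bin to bin to −0.17 at a median GC content of 59.9%. Across genes, the Spearman correlation between GC content and log2 fold change was −0.590, and −0.512 at 3 h and −0.567 at 6 h. These genes are points from the same 8 libraries and no independent replicates. At 0 h the correlation in BAP1-AID was −0.544, and in the RA-treated UTX-AID libraries it was 0.0489, where the median of every bin was between −0.03 and 0.02. Within single libraries, the correlation of a gene's level, as a deviation from the mean of its clone, with GC content was 0.462 and 0.442 (−IAA, 3 h), 0.279 and 0.290 (−IAA, 6 h), −0.251 and −0.230 (+IAA, 3 h) and −0.556 and −0.543 (+IAA, 6 h). The arms did not overlap in it, and replicates lay close together. With transcript length, the 2 −IAA libraries at 3 h differed from each other, at −0.424 and 0.0342. The part of the trend in any gene's difference was not tested apart from the correction, and with 1 clone the trend and the loss of BAP1 cannot be told apart.

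**Figure D1:**
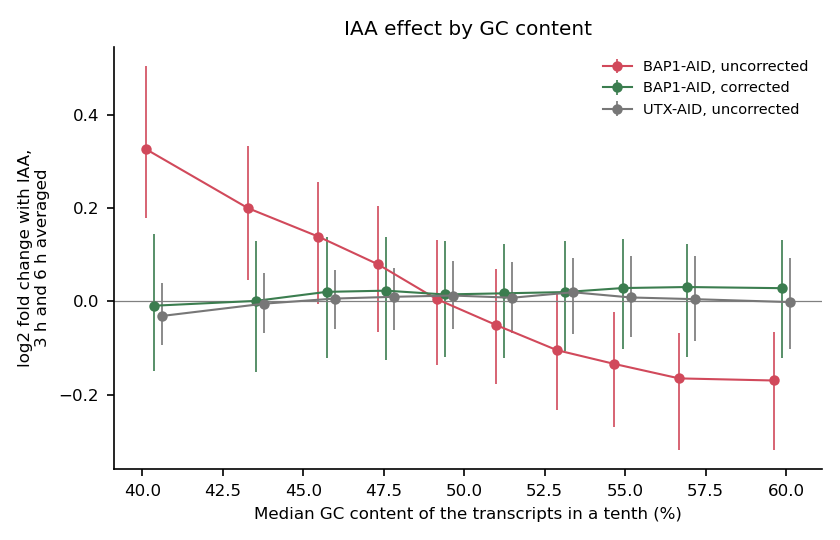
Median log2 fold change with IAA (3 h and 6 h averaged, y axis) in 10 bins of the expressed genes by GC content of the transcripts (x axis, %), with bars from the first to the third quartile of the genes. In BAP1-AID the uncorrected medians fall from 0.33 to −0.17, while the corrected ones and those of UTX-AID lie near 0 in every bin.

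Among the genes called higher without the correction, the median GC content was 41.7% and the median transcript length 6617.5 bases, against 50.55% and 3280 bases over all genes tested. The 17 genes called in both fits had a median GC content of 49.95% and a median length of 3355.5 bases, and 8 of them averaged under 1 CPM. The 62 lower genes called in both fits had a median GC content of 52.6%, and 26 of them averaged under 1 CPM. Medians of GC content and length rest on genes with an annotated transcript, 14 of the 17 and 55 of the 62.

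The smallest adjusted p-values among genes called higher in both fits were those of *Cyp1b1* and *Cyp1a1*, targets of the aryl hydrocarbon receptor (AhR), a ligand-activated transcription factor that responds to planar aromatic molecules and induces the enzymes that oxidise them. AhR and its partner bind the core letters GCGTG, and the 250 bases before the start of 3 targets that rose are shown because each holds these letters or their reverse complement CACGC once, in capitals. The sequences are RefSeq's, 5′ to 3′ on the strand of the gene.
Cyp1a1 (GRCm38.p6, chr9:57697363-57697612, plus strand): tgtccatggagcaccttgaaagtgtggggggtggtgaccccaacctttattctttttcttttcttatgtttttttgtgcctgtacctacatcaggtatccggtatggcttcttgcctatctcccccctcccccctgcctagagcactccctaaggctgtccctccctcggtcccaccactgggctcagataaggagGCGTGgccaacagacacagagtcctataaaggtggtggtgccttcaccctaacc
Cyp1b1 (GRCm38.p6, chr17:79715062-79715311, minus strand): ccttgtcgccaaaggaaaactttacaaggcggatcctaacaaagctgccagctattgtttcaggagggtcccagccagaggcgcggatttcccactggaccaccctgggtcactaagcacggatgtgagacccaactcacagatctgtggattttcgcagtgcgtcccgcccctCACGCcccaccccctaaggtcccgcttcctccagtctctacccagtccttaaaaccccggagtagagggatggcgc
Tiparp (GRCm38.p6, chr3:65528197-65528446, plus strand): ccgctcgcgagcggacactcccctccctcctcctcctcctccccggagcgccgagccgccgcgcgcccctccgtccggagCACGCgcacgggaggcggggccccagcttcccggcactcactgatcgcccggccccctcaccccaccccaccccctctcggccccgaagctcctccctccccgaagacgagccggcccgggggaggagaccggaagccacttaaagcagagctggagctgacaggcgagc
The letters lie 54 bases before the start in *Cyp1a1*, 76 in *Cyp1b1* and 170 in *Tiparp*. On either strand they occur in 28.2% of the 32851 windows of this length before annotated starts, so a match is a description and no binding site. Of the other targets with a window, *Ahrr* held 3 matches, and *Nqo1* and *Cyp1a2* held none, which says nothing about AhR at those genes.

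*Cyp1a1*, a cytochrome P450 that oxidises aromatic hydrocarbons, lies in mm39 at chromosome 9, 57595211 to 57611107, plus strand. *Cyp1a1* was at 0 and 0.135 CPM without IAA and 8.38 and 9.12 CPM with IAA at 3 h, and at 0.281 and 0.273 CPM against 7.97 and 9.28 CPM at 6 h. It was at 0.281 CPM or less in the 4 −IAA libraries and at 7.97 CPM or more in all 4 +IAA libraries. The log2 fold change was 5.63 ± 0.38 (SE, adjusted p = 0.000112), and 5.70 (adjusted p = 6.1e-05) with the correction. *Cyp1b1* was at 0.539 and 0.637 CPM in the −IAA libraries at 3 h and 1.39 and 1.40 CPM at 6 h, and in the +IAA libraries at 6.05 and 6.46 and then 8.91 and 9.24 CPM. *Cyp1b1*, a related P450 at chromosome 17, 80008966 to 80022532, minus strand, did not overlap between the arms at either time, with a log2 fold change of 2.99 ± 0.17 (SE, adjusted p = 5.47e-05) and, corrected, 2.89 (adjusted p = 2.03e-05). *Tiparp*, an ADP-ribosyltransferase of the PARP family that restrains AhR, rose by less. It was at 37.3 and 40.1 CPM without IAA and 69.2 and 71.1 CPM with IAA at 3 h. At 6 h it was at 43.6 and 41.4 CPM against 73.2 and 74.2 CPM. The log2 fold change of *Tiparp* was 0.81 ± 0.055 (SE, adjusted p = 0.000112) and, corrected, 0.60 (adjusted p = 0.000203).

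Of the 7 AhR targets tested, 4 rose and 0 fell, or 3 and 0 with the correction, with a median log2 fold change of 0.81 (corrected 0.60). Over all genes tested the median was −0.023 (corrected 0.012). *Nqo1*, a quinone reductase, had a log2 fold change of 0.35 ± 0.11 (SE, adjusted p = 0.0369), which missed the threshold once corrected, at 0.24 (adjusted p = 0.182). *Ahrr* (1.86, adjusted p = 0.227), the AhR repressor, *Aldh3a1* (−0.63, adjusted p = 0.0978), an aldehyde dehydrogenase, and *Cyp1a2* (−1.11, adjusted p = 0.669), another P450, did not pass the test. The same enzymes were higher with IAA in UTX-AID, where BAP1 carries no degron. There *Cyp1a1* was at 0.463 and 0.0822 CPM without and 9.43 and 6.78 CPM with IAA at 3 h, and at 0.221 and 0.312 CPM against 7.12 and 5.46 CPM at 6 h. The log2 fold change in UTX-AID was 4.74 (adjusted p = 1.9e-06) for *Cyp1a1* and 3.000 (adjusted p = 7.79e-05) for *Cyp1b1*. The difference between the clones was 0.94 ± 0.59 (SE, adjusted p = 0.312) for *Cyp1a1* and 0.039 ± 0.59 (SE, adjusted p = 0.983) for *Cyp1b1*, so no difference was detected. The difference for *Tiparp* passed the test, at 0.46 ± 0.069 (SE, adjusted p = 0.000207) and, corrected, 0.21 (adjusted p = 0.0371), with a log2 fold change of 0.38 in UTX-AID.

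Of the other genes called higher in both fits whose arms did not overlap at either time, *Igfbp5* and *Vldlr* had the highest mean levels. *Igfbp5* encodes a secreted protein that binds insulin-like growth factors, and lies at chromosome 1, 72897091 to 72914043, minus strand. For *Igfbp5*, the values were 1.58 and 1.95 CPM (−IAA) and 4.51 and 6.25 CPM (+IAA) at 3 h, then 1.57 and 2.13 CPM (−IAA) and 4.65 and 4.74 CPM (+IAA) at 6 h. Its log2 fold change was 1.46 ± 0.17 (SE, adjusted p = 0.000697) and, corrected, 1.46 (adjusted p = 0.00126). *Vldlr* was at 1.29 and 1.39 CPM without IAA and 2.64 and 4.01 CPM with IAA at 3 h, and at 2.77 and 1.79 CPM against 5.03 and 5.37 CPM at 6 h. *Vldlr*, a receptor for very-low-density lipoprotein and reelin, had a log2 fold change of 1.23 ± 0.19 (SE, adjusted p = 0.00179) and, corrected, 1.02 (adjusted p = 0.00826). Both were also higher in the 0 h libraries, with log2 fold changes of 0.98 (*Igfbp5*, adjusted p = 0.0118) and 0.79 (*Vldlr*, adjusted p = 0.0409). The effect of IAA on *Vldlr* differed between the clones by 1.40 ± 0.27 (SE, adjusted p = 0.00142), and that on *Igfbp5* by 0.64 ± 0.33 (SE, adjusted p = 0.206), which did not pass.

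*Gm3414* was at 0.954 and 1.31 CPM in the −IAA libraries at 3 h and 0.763 and 0.936 CPM at 6 h, and in the +IAA libraries at 2.31 and 1.72 and then 3.63 and 3.13 CPM. *Gm3414*, a predicted gene, had a log2 fold change of 1.39 ± 0.27 (SE, adjusted p = 0.00536). Its counts were not corrected, so its log2 fold change was the same in both fits. For *Erfe*, the values were 0.249 and 0.406 CPM (−IAA) and 1.41 and 1.53 CPM (+IAA) at 3 h, then 0.924 and 0.761 CPM (−IAA) and 1.18 and 1.71 CPM (+IAA) at 6 h. *Erfe* encodes erythroferrone, a hormone that lowers hepcidin, and its log2 fold change was 1.41 ± 0.36 (SE, adjusted p = 0.0182), with 2.15 at 3 h and 0.75 at 6 h, a difference that did not pass (adjusted p = 0.67). Its +IAA values were close at both times, while its −IAA values were lower at 3 h than at 6 h. The predicted gene *Gm9595* (1.06), *Filip1l* (1.86), *Gabra5* (1.62), a GABA receptor subunit, and *Slc8a1* (1.71), a sodium-calcium exchanger, were called as well, but each call was lost when 1 of some libraries was left out. Of these 4, *Gm9595* lost its call without replicate 2 of −IAA 6 h (0.87) or replicate 1 of +IAA 6 h (0.88). The call of *Filip1l* was lost without any 1 of the 4 libraries at 6 h (highest adjusted p = 0.0712), that of *Gabra5* without any 1 of 3 libraries (0.0798) and that of *Slc8a1* without any 1 of 4 (0.0834). *C130046K22Rik* was at 0 in the 4 −IAA libraries and at least 3.05-fold higher with IAA, taken against 3 counts in a library, and lost its call without any 1 of 6 libraries (highest adjusted p = 0.0937). *Erfe*, *Filip1l*, *Gabra5* and *C130046K22Rik* share exon bases with a gene on the opposite strand, and reads of such a pair could not be told apart without strand.

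*Raet1d* and *Raet1a*, closely related genes for ligands of the immune receptor NKG2D, moved in opposite directions. *Raet1d* was at 0 in the 4 −IAA libraries and at 0.395 and 2.79 CPM at 3 h and 5.46 and 3.64 CPM at 6 h with IAA, at least 51.4-fold higher. *Raet1a* was at 0.290 and 7.09 CPM at 3 h and 0 and 3.34 CPM at 6 h without IAA and at 0 in the 4 +IAA libraries, at least 43.9-fold lower. The sum of both overlapped between the arms, from 0 to 7.09 CPM without and from 0.395 to 5.46 CPM with IAA. At 0 h, *Raet1d* was at 1.69 and 0 CPM without IAA and 0 and 3.38 CPM with it, in replicates 1 and 2. *Raet1a* there was at 0 and 4.73 CPM without IAA and 4.54 and 0 CPM with it. So within each arm at 0 h, the replicates differed in which copy held the counts. How the counting split reads among these copies was not tested, and it cannot be told apart from a difference in either gene.

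Of the genes called lower in both fits, the 12 with the smallest adjusted p and with arms that did not overlap at 3 h or at 6 h, had log2 fold changes from −2.27 to −1.06 (median of their 0 h values −1.28). All 12 fell at 3 h and at 6 h when each time was tested alone (of all genes, 3.15% and 4.42% fell), but these are the libraries that chose the 12, so nothing is read from it. At 0 h, in libraries not used for the choice, 11 of the 12 fell (6.66% of all genes). The spread in that test was estimated over all 12 BAP1-AID libraries, 8 of which chose the genes, so its adjusted p is not independent of the choice. The 0 h arms of all 12 did not overlap, but the share of all genes without overlap at 0 h is not given here. So nothing is read from that non-overlap. With 3 h and 6 h both required, 15.6% of all genes tested were lower with IAA without overlap of the arms, and 18.5% were higher. In UTX-AID, where 0.164% of genes rose and 0.583% fell, 4 of the 12 were lower with IAA and 0 of the 12 fell. The log2 fold changes of the 12 there were between −0.255 and 0.331. The difference of the effect between the clones passed for all 12, without and with the correction. A more negative effect in BAP1-AID than in UTX-AID passed for 5.76% and 4.28% of all genes. The difference too holds the BAP1-AID libraries that chose the 12. The 12 averaged 1.25 to 16.1 CPM in the 8 libraries.

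*Nipal3*, of a family of magnesium transporters, lies at chromosome 4, 135172731 to 135222349, minus strand. *Nipal3* was at 11.6 and 15.3 CPM without IAA and 4.72 and 5.77 CPM with IAA at 3 h, and at 11.9 and 13.7 CPM against 5.16 and 4.39 CPM at 6 h. All +IAA values were under 6 CPM and all −IAA values above 11 CPM, with a log2 fold change of −1.40 ± 0.12 (SE, adjusted p = 0.000561) and, corrected, −1.29 (adjusted p = 0.00033). *Nicn1* was at 23.0 and 22.1 CPM in the −IAA libraries at 3 h and 18.3 and 23.5 CPM at 6 h, and in the +IAA libraries at 11.1 and 9.64 and then 11.8 and 8.89 CPM. *Nicn1*, at chromosome 9, 108167601 to 108173698, plus strand, encodes nicolin 1, a subunit of the tubulin polyglutamylase complex. Its log2 fold change was −1.08 ± 0.11 (SE, adjusted p = 0.000561), and that in UTX-AID was 0.29 (adjusted p = 0.238). For *Nudt22*, the values were 11.5 and 10.6 CPM (−IAA) and 4.64 and 5.32 CPM (+IAA) at 3 h, then 11.95 and 9.89 CPM (−IAA) and 3.73 and 4.39 CPM (+IAA) at 6 h. *Nudt22*, a Nudix hydrolase, fell by 1.30 on the log2 scale (adjusted p = 0.000561).

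*Tnk1* was at 2.28 and 2.14 CPM without IAA and 0.374 and 0.372 CPM with IAA at 3 h, and at 1.53 and 2.32 CPM against 0.334 and 0.651 CPM at 6 h. *Tnk1*, a non-receptor tyrosine kinase, fell to under 0.7 CPM in each +IAA library, a log2 fold change of −2.27 ± 0.30 (SE, adjusted p = 0.00089) and, corrected, −2.07 (adjusted p = 0.00321). *Ifnlr1* was at 1.91 and 3.57 CPM in the −IAA libraries at 3 h and 3.05 and 2.93 CPM at 6 h, and in the +IAA libraries at 0.832 and 0.559 and then 0.805 and 0.387 CPM. *Ifnlr1*, which encodes a receptor subunit for type III interferons, had a log2 fold change of −2.16 ± 0.30 (SE, adjusted p = 0.00105). A second cytokine receptor, *Il11ra1*, for interleukin-11, had one of −1.25 ± 0.17 (SE, adjusted p = 0.001). Neither receptor overlapped between the arms at either time.

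For *Prr13*, the values were 10.4 and 8.52 CPM (−IAA) and 4.32 and 4.59 CPM (+IAA) at 3 h, then 10.4 and 8.56 CPM (−IAA) and 4.79 and 4.70 CPM (+IAA) at 6 h. *Prr13*, which encodes a proline-rich protein, had a log2 fold change of −1.06 ± 0.11 (SE, adjusted p = 0.000561). *Ttc26* was at 12.4 and 17.6 CPM without IAA and 8.07 and 6.56 CPM with IAA at 3 h, and at 17.9 and 15.3 CPM against 7.38 and 7.91 CPM at 6 h. *Ttc26*, a component of intraflagellar transport in cilia, had one of −1.09 ± 0.12 (SE, adjusted p = 0.000689). Leaving out replicate 1 of −IAA 3 h took *Prr13* to −0.99 and leaving out replicate 2 of −IAA 3 h took *Ttc26* to −0.99, just inside a log2 fold change of 1. The remaining 4 were *Ppfia3* (−1.54), a liprin of synaptic active zones, *Rab3a* (−1.33), a GTPase of synaptic vesicles, *Sgsm1* (−1.26), a modulator of small GTPases, and *5730409E04Rik* (−1.18), each with an adjusted p of at most 0.00116. The exons of *Tnk1* share 902 bases with *Plscr3*, those of *Rab3a* 541 with *Mpv17l2* and those of *Ppfia3* 370 with *Mtag2*, on the opposite strand.

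**Figure D2:**
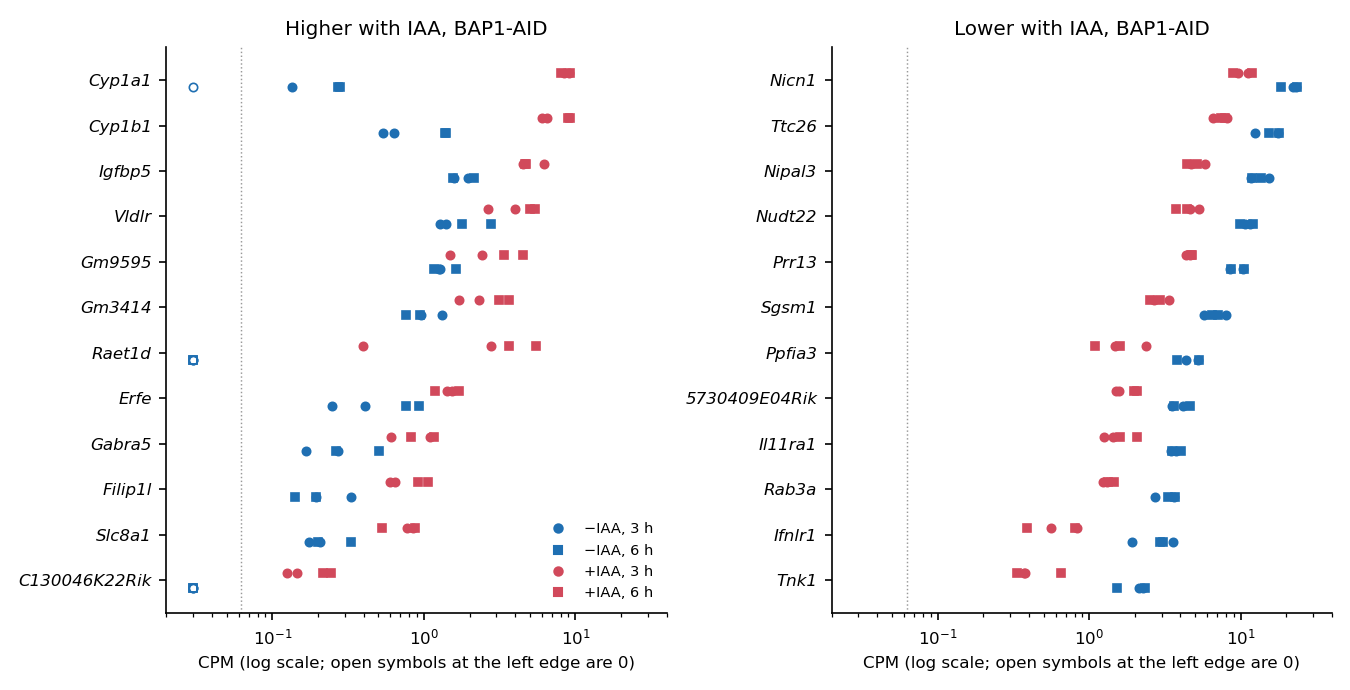
Level of 24 genes in the 8 BAP1-AID libraries (x axis, CPM on a log scale), 12 called higher and 12 called lower with IAA in both fits, with circles at 3 h and squares at 6 h. Blue symbols are −IAA and red ones +IAA, open symbols at the left edge are values of 0, and the dotted line marks 3 counts in a library. The 12 lower genes average 1.25 CPM or more, while 4 of the 12 higher genes average under 1 CPM.

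Some large differences did not hold once the trend was removed. *Phip*, a chromatin-binding protein with bromodomains, went from 1.20 to 0.71, and *Nbeal1* from 1.22 to 0.57 on the log2 scale. The zinc finger gene *Zfp758* went from 1.188 to 0.59, and *Zfp433*, from 2.33 to 1.99, lost its adjusted p (0.0611). The GC contents of the transcripts of *Phip* and *Nbeal1* were 39.5% and 37.6%, and their lengths 11026 and 15888 bases. On the opposite strand, exons of *Phip* share 667 bases with *Irak1bp1* and those of *Zfp758* 293 with *Zfp944*. Among the lower genes, the adult globin *Hbb-b2* (−3.004), *Gm52298* (−2.22), *Sh2d3c* (−1.32), *Gm38999* (−1.28) and *Syt5* (−1.20), a synaptotagmin, were called without the correction alone. With it their log2 fold changes were −3.004, −2.22, −1.11, −1.08 and −0.99, in the same order. *Hbb-b2* and *Gm52298* matched no annotated transcript, so their counts were not corrected, and the fit took their adjusted p to 0.0515 and 0.0586.

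The effects at 3 h and at 6 h rest on separate libraries. At 3 h, 23 genes (0.15%) were called higher with IAA and 84 (0.549%) lower, and with the correction 10 (0.0653%) and 36 (0.235%). At 6 h, 166 genes (1.08%) were called higher and 76 (0.496%) lower, and with the correction 38 (0.248%) and 41 (0.268%). Leaving out replicate 2 of −IAA 3 h raised the 3 h counts to 135 and 183, and leaving out either +IAA 3 h library lowered them to 2 and 0. The 3 h counts were 59 and 103 without replicate 1 of −IAA 3 h, 9 and 38 or 39 without either −IAA 6 h library, and 11 and 52 or 53 without either +IAA 6 h library. The number of genes called lower at 6 h was 140 or 141 without a −IAA 3 h library, 33 or 26 without replicate 1 or 2 of −IAA 6 h, and 34 or 45 without replicate 1 or 2 of +IAA 6 h. The number called higher at 6 h stayed between 141 and 204 without any 1 library, while the other 3 counts moved by over 1.5 times. The counts of the −IAA pair at 3 h differed by a chi-square of 63.7 per gene, against 5.81 to 8.93 in the other pairs.

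Of the 84 genes called lower at 3 h, 79 (94.05%) were lower at 6 h, with a median log2 fold change of −0.87 there against −1.26 at 3 h. Of the 76 called lower at 6 h, 71 (93.4%) were lower at 3 h. The number called lower at both was 21, which is 25% of the 3 h list and 27.6% of the 6 h list. Of the 166 genes called higher at 6 h, 161 (97%) were higher at 3 h, with a median of 0.45 there against 1.22 at 6 h. Of the 23 called higher at 3 h, 18 (78.3%) were higher at 6 h, and 5 were called at both times, 21.7% of the 3 h list and 3.01% of the 6 h list. With the correction, 8 of 10 higher and 35 of 36 lower 3 h genes had the same sign at 6 h, and 37 of 38 higher and 39 of 41 lower 6 h genes had the same sign at 3 h. Across 11758 genes the log2 fold changes of the 2 times had a Spearman correlation of 0.661, and of 0.496 with the correction. Called or not, 69.2% of all genes higher and 74.9% of those lower at 3 h had the same sign at 6 h, and 72.1% and 72.2% in the other direction, or 64.9% to 68% with the correction. The share of the higher 3 h calls lies near these. These values are a description, and both times share the GC trend.

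**Figure D3:**
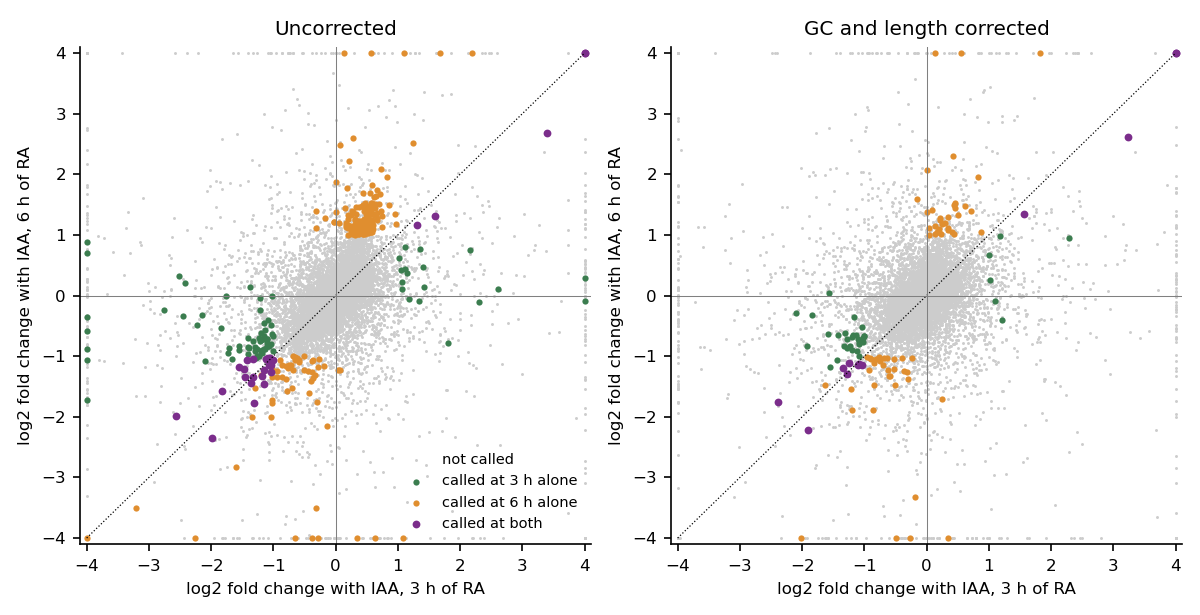
Log2 fold change with IAA at 3 h (x axis) and at 6 h of RA (y axis) for each gene tested in BAP1-AID, uncorrected on the left and corrected for GC content and transcript length on the right, with values beyond 4 drawn at 4. Genes called at 3 h alone are green, at 6 h alone orange and at both times purple. Most called genes lie at the lower left or upper right, and fewer genes called higher at 6 h alone are seen after the correction (38 in all called higher at 6 h, against 166 without it).

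The test of the difference itself found 8 genes (0.0523%) whose effect was larger at 6 h than at 3 h and 0 with a smaller one. At an unadjusted p under 0.05, 1111 genes (7.26%) differed in either direction, and DESeq2 called 33 larger and 8 smaller. By the adjusted p alone, 45 genes (0.294%) had a larger effect at 6 h. These 45 were long and AT-rich, with a median transcript length of 9986 bases and a median GC content of 40.3%, and their median log2 fold change was 0.45 at 3 h, 1.28 at 6 h, 0.70 at 0 h and −0.08 in UTX-AID. With the correction, 3 genes (0.0196%) were called. The 8 calls became 21 without replicate 1 of −IAA 3 h, 81 without replicate 2 of −IAA 3 h, and 0 without any 1 of the other 6 libraries.

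*Akap9*, a scaffold of the centrosome and Golgi that binds protein kinase A, lies at chromosome 5, 3978054 to 4131310, plus strand. Its exons share 1253 bases with *Cyp51* on the opposite strand. *Akap9* was at 20.4 and 20.6 CPM in the −IAA libraries at 3 h and 16.6 and 17.0 CPM at 6 h, and in the +IAA libraries at 24.3 and 27.4 and then 47.5 and 46.3 CPM. Its −IAA values were lower at 6 h than at 3 h, while the +IAA values at 6 h were above all others. The difference of the log2 fold changes was 1.12 ± 0.12 (SE, adjusted p = 0.0207) and, corrected, 1.08 (adjusted p = 0.0432). For *Rev3l*, the values were 26.5 and 23.3 CPM (−IAA) and 33.6 and 35.5 CPM (+IAA) at 3 h, then 23.6 and 25.3 CPM (−IAA) and 69.5 and 73.7 CPM (+IAA) at 6 h. *Rev3l*, the catalytic subunit of DNA polymerase zeta, differed by 1.06 ± 0.13 (SE, adjusted p = 0.0213) and, corrected, by 1.00 (adjusted p = 0.0666).

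*Ttn* was at 25.1 and 24.7 CPM without IAA and 30.4 and 34.6 CPM with IAA at 3 h, and at 16.3 and 13.7 CPM against 42.9 and 40.9 CPM at 6 h. *Ttn*, the giant muscle protein titin with an annotated transcript of 107543 bases, differed by 1.08 ± 0.15 (SE, adjusted p = 0.0358), but corrected by −0.054 (adjusted p = 0.944), with the opposite sign. That length lies far above the median of 9628.5 bases among expressed genes over 8000 bases. *Ttn* was also among the genes that set the length trend, so its correction is not independent of its own values. *Zfp534*, a zinc finger gene, differed by 1.07 ± 0.14 (SE, adjusted p = 0.0234) and, corrected, by 0.56 (adjusted p = 0.172). Among the called genes, 3 more, named after their values were seen, were *Nbeal1* (corrected 0.61, adjusted p = 0.306), *Casp8ap2* (corrected 0.91, adjusted p = 0.0737), which acts in histone mRNA processing, and *4932438A13Rik*, which had no annotated transcript and so no correction. *Mki67*, the proliferation antigen Ki-67, was likewise chosen after its values were seen. *Mki67* was at 87.9 and 101 CPM in the −IAA libraries at 3 h and 92.9 and 93.9 CPM at 6 h, and in the +IAA libraries at 152 and 155 and then 273 and 269 CPM. Its difference was 0.81 ± 0.11 (SE, adjusted p = 0.0345) and, corrected, 0.84 (adjusted p = 0.00869), below the size for a call in either fit.

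**Figure D4:**
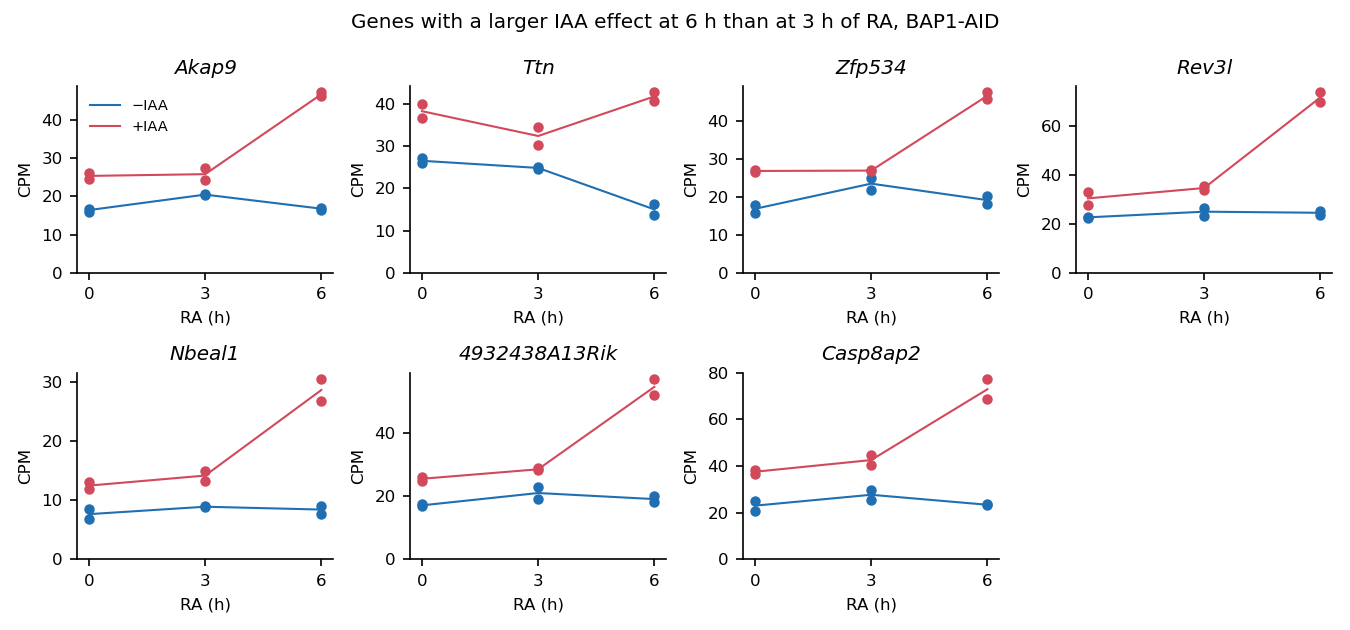
Level in CPM (y axis, from 0) of 7 genes called for a larger IAA effect at 6 h than at 3 h, against hours of RA (x axis), in BAP1-AID. Points are libraries and lines join the means of 2, blue for −IAA and red for +IAA. The +IAA values of *Akap9* reach 47.5 and 46.3 CPM at 6 h, against 16.6 and 17.0 CPM without IAA.

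The lists that follow are read against the share of all genes that rose (11.4%) or fell (10.3%), or with the correction 6.62% and 5.98%. None of the genes listed for the machinery that sets and removes the H2A mark was called, nor any of the 15 tested of the 18 genes that the study names. These lists are not complete. The ubiquitin ligase *Dzip3*, on none of them, was called without the correction (1.07, adjusted p = 0.000561) and not with it (0.69). With 0.372% of all genes called higher and 0.745% lower, lists of this size would hold few or no calls at that share. Of 12 genes of PR-DUB, 3 rose and 0 fell, or 2 and 1 with the correction, with a median log2 fold change of 0.062 (corrected 0.091). Those that rose were *Ogt*, *Asxl2* and *Mbd5* without it and *Foxk2* and *Hcfc1* with it, and *Kdm1b* fell with it, so no PR-DUB gene passed in both fits. Of 31 PRC1 genes, 6 rose and 3 fell, and with the correction 4 and 1, with a median of 0.16 (corrected 0.084). *Kdm2b*, which brings a variant PRC1 to unmethylated CpG islands, fell by 0.46 on the log2 scale (adjusted p = 0.000916, and corrected −0.37, adjusted p = 0.00198). The PRC1 subunits *Bmi1* (0.53, corrected 0.28), *E2f6* (0.36, corrected 0.40) and *Tfdp1* (0.28, corrected 0.23) rose in both fits. *Rnf2*, the E3 ligase that places the mark, rose without the correction (0.37) and did not pass with it, at 0.084 (adjusted p = 0.419).

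In PRC2, *Ezh2*, the methyltransferase, rose. For *Ezh2*, the values were 133 and 159 CPM (−IAA) and 196 and 199 CPM (+IAA) at 3 h, then 162 and 156 CPM (−IAA) and 213 and 208 CPM (+IAA) at 6 h. The arms of *Ezh2* did not overlap within either time, with a log2 fold change of 0.41 ± 0.061 (SE, adjusted p = 0.00154) and, corrected, 0.34 (adjusted p = 0.00196), and 0.016 in UTX-AID. The difference between the clones was 0.42 ± 0.075 (SE, adjusted p = 0.000704). *Ezh1*, the other PRC2 methyltransferase, fell by 0.43 on the log2 scale (corrected −0.37). Of 12 PRC2 genes, 5 rose and 2 fell, against 11.4% and 10.3% of all genes, and with the correction 3 and 2, against 6.62% and 5.98%. Core subunits *Suz12* (0.29, corrected 0.025) and *Eed* (0.20, corrected 0.19) rose without the correction, and *Eed* also with it.

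Of 11 genes of UTX and the MLL3/4 complexes, 3 rose and 0 fell (11.4% and 10.3% of all genes), and with the correction 1 and 0 (6.62% and 5.98%). *Kdm6a*, which encodes UTX, had a log2 fold change of 0.33, and 0.00073 (adjusted p = 0.994) with the correction. Its Y-linked paralog *Uty* was at 0.71 and, corrected, at 0.14 (adjusted p = 0.337). The paper, from RT-qPCR in UTX-AID cells, reports no expression of *Uty* in E14 cells. In BAP1-AID here, *Uty* passed the filter on low counts. That is another clone and another measure, so the paper's statement was not tested. Among 9 other H2A deubiquitinases, *Brcc3*, *Mysm1* and *Usp16* rose without the correction and none with it. Of the remaining genes that the study names, *Kdm6b* (−0.13), *Kmt2d* (−0.022), *Asxl1* (0.085), *Ep300* (0.18), *Sox2* (0.098), *Gata4* (−0.52) and *T* (0.40) had log2 fold changes under 0.6 in size without a call.

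Most RA-responsive genes did not pass the test, and all that passed in either fit rose. Of 22 genes of the RA response, 4 rose and 0 fell, and with the correction 7 and 0, against backgrounds of 11.4% and 6.62% of genes that rose, with a median log2 fold change of 0.052 (corrected 0.13). *Cyp26a1* was at 269.7 and 247 CPM without IAA and 275 and 277 CPM with IAA at 3 h, and at 475 and 482 CPM against 498 and 502 CPM at 6 h. *Cyp26a1*, the P450 that degrades RA, was higher at 6 h than at 3 h in each arm, and the arms differed by 0.064 ± 0.047 (SE, adjusted p = 0.369) and, corrected, by 0.23 (adjusted p = 0.00461). *Hoxb1* (−0.06, adjusted p = 0.712), an early RA-induced Hox gene, did not pass. The RA receptor gene *Rarb* rose by 0.43 (corrected 0.44), and *Nrip1*, a corepressor of nuclear receptors, by 0.43 (corrected 0.20).

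Of 39 Hox genes, 26 were tested, and 0 rose and 2 fell, or 0 and 0 with the correction. The 2 were *Hoxb4* (−0.26) and *Hoxb5* (−0.38), and the median of the 26 went from −0.19 to −0.02 with the correction. Of 50 developmental regulators with bivalent chromatin in ESCs, 35 were tested, and 1 rose and 0 fell in either fit. That gene was *Gata2*, a transcription factor of blood progenitors. *Gata2* was at 0.104 and 0 CPM in the −IAA libraries at 3 h and 0.362 and 0.254 CPM at 6 h, and in the +IAA libraries at 0.478 and 0.931 and then 0.707 and 1.18 CPM. Its arms did not overlap at either time, and its log2 fold change of 2.45 ± 0.71 (SE, adjusted p = 0.0332) was the only call among the bivalent genes. The call was lost without any 1 of 4 libraries (highest adjusted p = 0.0977) and in the fit with replicate as a block (0.0552).

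Of 22 pluripotency genes, 0 rose and 9 fell, against a background of 10.3% of genes that fell, but with the correction 1 rose and 2 fell. For *Nanog*, the values were 217 and 182 CPM (−IAA) and 143 and 141 CPM (+IAA) at 3 h, then 153 and 148 CPM (−IAA) and 131 and 135 CPM (+IAA) at 6 h. *Nanog*, a core pluripotency factor, fell by 0.35 on the log2 scale (adjusted p = 0.00817, and corrected −0.42, adjusted p = 0.00753), and its arms did not overlap within a time. *Pou5f1*, another core factor, went from −0.17 to 0.059 and *Esrrb* from −0.25 to −0.08 with the correction. Of 10 ESC markers, 6 fell, and with the correction 1 rose and 1 fell. Formative genes (1 of 13 fell, *Etv5* without and *Otx2* with the correction), germline genes (2 of 19 rose, 1 corrected) and genes of the two-cell-like state (0 of 10 moved) held few changes.

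Of 24 genes of sterol synthesis, 0 rose and 7 fell, and with the correction 0 and 9, against backgrounds of 10.3% and 5.98% of all genes. Most of the 24 did not pass, and their median log2 fold change was −0.10 (corrected −0.15). *Fdps* was at 183 and 142 CPM without IAA and 117 and 112 CPM with IAA at 3 h, and at 147 and 155 CPM against 113 and 108 CPM at 6 h. *Fdps*, which makes farnesyl diphosphate, had a log2 fold change of −0.49 ± 0.075 (SE, adjusted p = 0.0016) and, corrected, −0.36 (adjusted p = 0.00238), and its −IAA values were all above its +IAA values. *Pmvk* (−0.59, corrected −0.37) and *Mvd* (−0.52, corrected −0.29) of the mevalonate pathway and *Dhcr7* (−0.44, corrected −0.28), which makes cholesterol, fell as well. No sterol gene was called, since no change reached a log2 fold change of 1. The difference of the effect on *Fdps* between the clones was −0.63 (adjusted p = 0.0121).

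Of 15 immediate early genes, induced within minutes by growth signals, 0 rose and 5 fell, against 10.3% of all genes that fell, and with the correction 0 and 2, against 5.98%. The median of these 15 went from −0.26 to −0.039. *Junb* (−0.70, corrected −0.50), an AP-1 subunit, and *Nr4a1* (−0.69, corrected −0.48), an orphan nuclear receptor, had the largest decreases of the 5. Of 19 genes of the integrated stress response, 1 rose (*Vldlr*) and 7 fell, against the same backgrounds, but with the correction 2 rose and 1 fell. Of 11 BMP and Nodal targets, 3 fell, with *Lefty2*, a Nodal inhibitor, at −0.56 (corrected −0.46) and at −0.44 in UTX-AID, and 1 fell with the correction. Of 11 genes of ERK output, 2 rose and 1 fell, and with the correction 1 and 0. Of 9 Wnt targets, 0 rose and 1 fell, and with the correction 1 and 0.

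**Figure D5:**
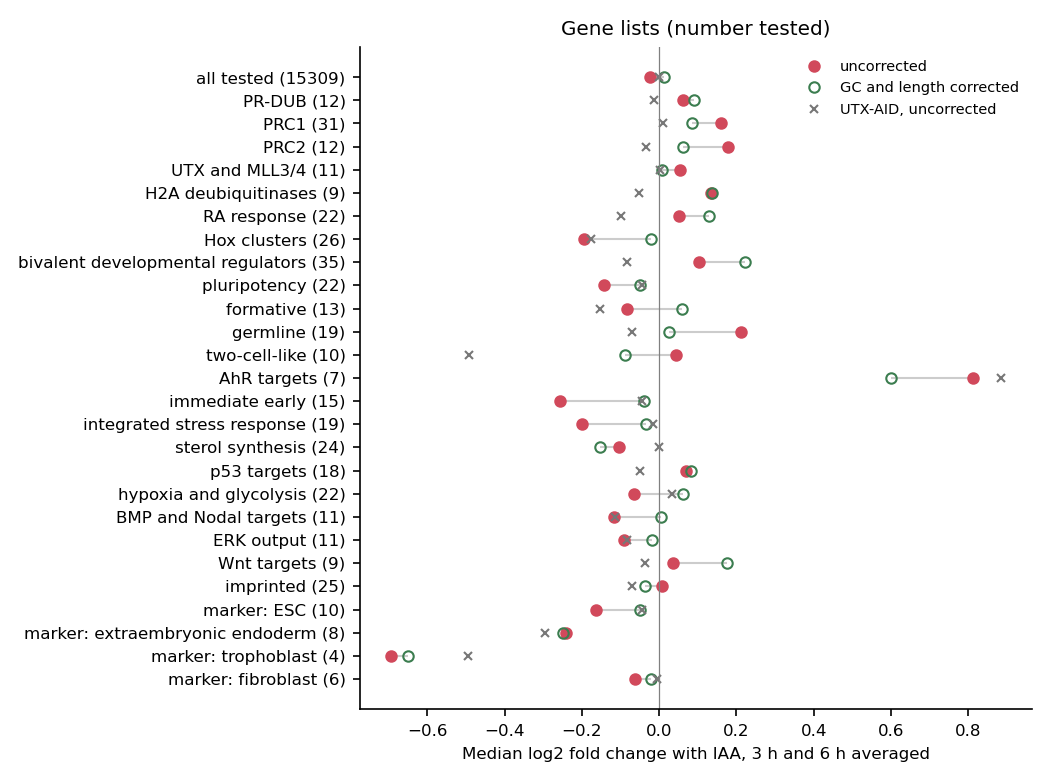
Median log2 fold change with IAA (3 h and 6 h averaged, x axis) over the tested members of each gene list, with the number tested in brackets, in BAP1-AID without (filled) and with (open) the correction and in UTX-AID (crosses). The AhR targets lie highest, at 0.81 in BAP1-AID against 0.89 in UTX-AID, and the trophoblast markers lowest, with 4 tested and none past the test.

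The effect of IAA in BAP1-AID was also set against that in UTX-AID, in 1 fit of 16467 genes over the 16 RA-treated libraries. In UTX-AID, 3 genes (0.0182%) were called higher with IAA and 8 (0.0486%) lower, and these values also hold the loss of UTX. The difference between the clones was called for 133 genes (0.808%) with a larger effect in BAP1-AID and 130 (0.789%) with a smaller, that is more negative, one, and with the correction for 50 (0.304%) and 98 (0.595%). Without replicate 2 of −IAA 6 h in BAP1-AID the first count was 81. The first count depended more on the correction than the second.

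More negative effects in BAP1-AID included that of *Nicn1*, described above, where the difference between the clones was −1.35 ± 0.14 (SE, adjusted p = 2.71e-05). The differences of *Tnk1* (−2.36), *Mtfp1* (−1.36), a protein of mitochondrial fission, and *Ifi30* (−1.29), a lysosomal thiol reductase, were also called. With the correction, the differences of *Nicn1*, *Tnk1*, *Mtfp1* and *Ifi30* were −1.30, −2.18, −1.24 and −1.13. *Tnk1* was at 7.05 to 11.3 CPM in the UTX-AID libraries, above its level in both arms of BAP1-AID.

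On the other side, *Ahnak*, a giant scaffold protein, had a log2 fold change of 0.45 in BAP1-AID but −0.67 in the UTX-AID clone, a difference of 1.15 ± 0.11 (SE, adjusted p = 1.22e-05). *Dzip3*, a ubiquitin ligase, differed by 1.18, and the zinc finger genes *Zfp518a*, *Zfp978* and *Zfp981* by 1.18, 1.25 and 1.06. With the correction, the differences of these 5 were 0.76, 0.73, 0.55, 0.78 and 0.33, all under 1. So the most certain larger effects lost their call with the correction, and zinc finger genes such as these may share reads with near copies, which leaves their values uncertain. Exons of *Zfp981* also share 390 bases with *1700095A21Rik* on the opposite strand.

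At 0 h of RA, in libraries that took no part in choosing the genes, 52 of the 57 genes called higher in the RA-treated libraries were also higher with IAA, 27 of them past the adjusted p. Of the 114 called lower, 105 were lower at 0 h, 45 past the adjusted p. Over all 15695 genes tested at 0 h, 11.8% rose and 6.66% fell. The sign at 0 h was the same for 72.8% of all genes on the higher side of the averaged effect and for 79.2% of those on the lower side, called or not. Of the genes called in both fits, 14 of 17 higher and 56 of 62 lower ones had the same sign at 0 h, and the first of these shares lies near that of all genes. The 0 h libraries are of the same clone and show the same GC trend. The spread in the 0 h test was estimated together with the RA-treated BAP1-AID libraries, so its adjusted p is not independent of the choice.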

How the data were processed

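Libraries of polyadenylated RNA were sequenced from mouse ESCs of the clones BAP1-AID and UTX-AID, which received IAA or not and RA for 0, 3, or 6 h. The authors isolated RNA with TRIzol, mapped reads to mm39 by HISAT2 (version 2.2.1), used SAMtools (version 1.19) and made the deposited estimated counts per gene with StringTie (version 2.2.1), not normalized, per the submitters' processing notes and the paper's methods. The annotation and the strandedness are not given in the sources used here. All deposited values were whole numbers. The authors tested differential expression with DESeq2.

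Groups were taken from the library labels. In R 4.3.3, counts were filtered with filterByExpr (minimum count 10, minimum total 15), scaled by TMM (factors 0.985 to 1.02) and tested with edgeR 4.0.16, by its quasi-likelihood test, two-sided. Every adjusted p is Benjamini-Hochberg over all genes of that fit. The biological coefficient of variation was 12.3%, and 11.2% with the correction. The averaged effect was fitted with RA time as a covariate, the effects at 3 h and 6 h and their difference with one coefficient per group over the same 8 libraries, the effect at 0 h over the 12 BAP1-AID libraries, and the difference between the clones over 16 libraries. The correction takes each library's log2 CPM, fits it by splines (5 degrees of freedom each) to the GC content and the length of transcripts, with genes whose mean log2 CPM exceeds 1, and subtracts the fit through offsets. A gene without an annotated transcript gets none. GC content, length and mm39 positions are from GENCODE, where 23897 of 26264 genes (91.0%) matched by symbol. Promoter sequences are RefSeq's on GRCm38.p6, and 6 of 7 AhR targets matched. Within a group, replicates had a Pearson correlation of 0.962 to 0.967 on the log2 scale and identical values in 1.93% to 2.14% of genes, so none was counted as a copy. Fits were tested on simulated counts.

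The members, gene lists and designs were chosen with earlier results of these data known. The rule for naming genes took (a) 12 per direction with the smallest adjusted p among genes called in both fits with arms that did not overlap at either time, (b) the genes the study names and the AhR targets, (c) up to 4 called members of each list, (d) up to 5 genes called for the difference between 6 h and 3 h, (e) up to 5 per direction with the largest change called without the correction alone at 1 CPM or more on average, and (f) up to 5 per direction called for the difference between the clones. Some genes that the rule takes are not reported here, though they are included in the counts. Members of lists that were not called were named after their values were seen. The alternatives were the GC or the length correction alone, both with the replicate number as a block or with a product term (added after the data were seen), DESeq2 1.42.0, RLE size factors, no filter, all libraries in the fit, and each library left out. Python 3.11.15, pandas 2.3.3 and matplotlib 3.10.9 served for tables and figures.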

Additional observations from a re-analysis of the deposited data

Results flagged for a closer look

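The difference between the effects of IAA at 6 h and at 3 h of RA passed edgeR's quasi-likelihood test for 8 genes, all with the larger effect at 6 h. On the log2 scale it was 1.12 for *Akap9* (adjusted p = 0.0207), 1.06 for *Rev3l* (0.0213), 1.07 for *Zfp534* (0.0234), 1.08 for *Ttn* (0.0358), 1.06 for *4932438A13Rik* (0.0402), 1.00 for *Casp8ap2* (0.0421) and 1.08 for *Nbeal1* (0.0453). Of these, *Akap9* and *4932438A13Rik* were also called with the GC and length correction, and the last of them has no annotated transcript and so the same counts in both fits.

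The difference between the effects of IAA in BAP1-AID and UTX-AID passed for these genes with a more positive effect in BAP1-AID: *Ahnak* at 1.15 (adjusted p = 1.22e-05), *Dzip3* at 1.18 (1.11e-05), *Zfp518a* at 1.18 (3.48e-05), *Zfp978* at 1.25 and *Zfp981* at 1.06 (5.83e-05). With a more negative effect in BAP1-AID it passed for *Nicn1* at −1.35, *Mtfp1* at −1.36, *Ifi30* at −1.29 (adjusted p = 2.71e-05 for each) and *Tnk1* at −2.36 (4.12e-05). With the correction these 4 differences were between −2.18 and −1.13.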

How the results depend on the processing

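Correction for GC content and transcript length and leaving out single libraries changed many, though not all, counts of calls by over 1.5 times. Neither did so for genes with a more negative effect in BAP1-AID than in UTX-AID (130, and 98 with the correction). For the averaged effect, the genes called higher went from 57 to 22 with both, 19 with GC alone, 18 with both and the replicate block, and 23 with the product term, and those called lower from 114 to 67, 68, 56 and 69 in the same order. At 3 h, the higher genes went from 23 to 10, 4, 3 and 10 and the lower ones from 84 to 36, 13, 23 and 40. At 6 h, the higher genes went from 166 to 38, 49, 37 and 34 and the lower ones from 76 to 41, 33, 35 and 40. The genes with a larger effect in BAP1-AID than in UTX-AID went from 133 to 50, 57, 52 and 52. DESeq2 called 87 higher and 184 lower genes for the averaged effect. The genes with a larger effect at 6 h than at 3 h went from 8 to 3 with both corrections, 4 with length alone, 3 with the replicate block, 0 with the corrections and the block, 0 with the product term, 33 with DESeq2, 4 without a filter and 14 with all BAP1-AID libraries, and those with a smaller effect from 0 to 8 with DESeq2 and 1 with all BAP1-AID libraries. The difference for *Ttn* turned to −0.13 with the length correction alone, −0.054 with both, −0.058 with both and the block, and −0.22 with the product term. *Ttn* itself was among the genes that set the length trend.

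With one library left out, the averaged effect called 28 to 104 genes higher and 89 to 120 lower, the 3 h effect 2 to 135 and 0 to 183, the 6 h effect 141 to 204 and 26 to 141, the difference between the times 0 to 81 larger and 0 to 61 smaller, and the difference between the clones 81 to 188 larger and 112 to 173 smaller. A group left with 1 library is assumed to vary like the others. The replicate numbers do not pair the samples: the deviations of same-numbered libraries had correlations of −0.0432 to 0.0286 in 6 pairs of groups. With the replicate block, the averaged effect called 55 higher and 104 lower, the 3 h effect 16 and 65, the 6 h effect 162 and 58, and the difference between the clones 132 and 132. The cause of these changes was not tested. The 12 lower genes named first kept their direction in all 18 alternatives and their calls in all but those given for *Prr13* and *Ttc26*. Genes near 3 counts in a library are measured imprecisely, and the floor of 3 counts behind a fold bound covers counting error only, while each SE and p-value measures the spread between libraries.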

Other observations

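Of 25 imprinted genes, which are expressed from the allele of one parent, 5 rose and 4 fell with IAA in the averaged fit, where 11.4% of all genes rose and 10.3% fell, and with the GC and length correction 5 and 2, where 6.62% and 5.98% did. *Kcnq1ot1*, a long antisense RNA at its imprinted domain, had a log2 fold change of 0.83 ± 0.19 (SE, adjusted p = 0.0124) and, corrected, 1.00 (adjusted p = 0.00862). *Snrpn* was at −0.19 and, corrected, at −0.52 (adjusted p = 0.000606), and *Usp29* at −0.54 and, corrected, at −0.79 (adjusted p = 0.00873). *Peg3*, which lies beside *Usp29* and is transcribed away from it, was at 0.40 and, corrected, at 0.24 (adjusted p = 0.0167).

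Against the same shares, of 18 p53 targets 4 rose and 0 fell, and with the correction 2 and 0. *Ccng1* (0.42, corrected 0.14), cyclin G1, and *Eda2r* (0.53, corrected 0.24), a death receptor, passed without the correction alone. Of 22 genes of hypoxia and glycolysis, 3 rose and 3 fell, and with the correction 3 and 1. *Vegfa*, the angiogenic factor, rose in both fits (0.39 and 0.46), and *Slc2a3*, a glucose transporter, fell in both (−0.31 and −0.31). Of 6 fibroblast markers tested, 1 rose and 2 fell, and with the correction 1 and 0, while 0 of 8 extraembryonic endoderm and 0 of 4 trophoblast markers passed. None of the genes in these lists was called without the correction, *Kcnq1ot1* was called with it, and those named were chosen after their values were seen.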
